A study of Mus musculus with 192 samples.

Results

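The genes described here are the protein-coding mouse genes whose symbols begin with Il and a digit, that is the interleukins and the chains of their receptors. The rule found 85 of the 22350 protein-coding gene identifiers on 19 autosomes and the X chromosome, namely 40 ligand genes, 41 receptor genes, 3 genes of soluble inhibitors (Il1rn, Il18bp and Il22ra2) and 1 enzyme gene (Il4i1). Pi-ATAC, which reads open chromatin by transposition in single cells whose proteins are recorded during sorting, was applied to a mixture in equal parts of 4T1 cells and mouse splenocytes. 4T1 is a mouse mammary carcinoma line, here sorted on EpCAM, an epithelial membrane protein, and the splenocytes, sorted on the leukocyte antigen CD45, came from the spleen of an MMTV-PyMT mouse that had no tumour. In that strain a mammary-active viral promoter drives the polyoma middle T oncogene. All cells were fixed with formaldehyde before transposition. Sample titles give 96 cells of each group, while 1 cell titled as 4T1 carries the splenocyte source name.

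The measurement was a list of 50000 windows of 500 bp centred on peak summits, without a count, score or p-value for any window. Peak names were read as 1 call on all cells pooled. This goes against the study's methods, which describe calls on the cells of a single condition, so it is not known whether both groups entered the list. Under either reading the list therefore counts as 1 sample without replicates. On the pooled reading, windows open in 4T1 cells and windows open in splenocytes cannot be told apart, the design allows no comparison of the groups, and read depth was not analysed here. All comparisons below are descriptions over genes, and neighbouring genes can share a window. Of the genes of the sorted proteins, Epcam had 2 windows at its start and 2 in its locus, while Ptprc, which encodes CD45, had none at its start and 3 in its locus. Since 64.5% of all protein-coding genes had at least 1 window and windows carry no group, this is no check of the sorting.

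Interleukins are secreted proteins through which leukocytes, and also epithelial and stromal cells, signal to each other. Most of them bind paired receptor chains that lack enzyme activity and pass the signal to JAK kinases and STAT transcription factors. Receptors of the IL-1 and IL-18 group instead recruit the adaptor MyD88 and IRAK kinases, and IL-17 receptors recruit the adaptor Act1. Many interleukin genes are silent until a cell is stimulated, whereas a resting cell often already carries the matching receptors.

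Interleukin genes had a window at a start less often than protein-coding genes at large. A promoter window was one that reached, by 1 bp or more, to within 1 kb of any transcript start annotated for the gene, so that its summit may lie slightly farther off. Of all protein-coding genes 48.1% had one, against 24 of the 85 interleukin genes (28.2%). Among ligand genes the count was 9 of 40 (22.5%), and among receptor genes 14 of 41 (34.1%). The 24 genes held 37 promoter windows. At least 2 were held by 9 of the 85 genes (10.6%), against 24.4% of all genes.

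Away from starts, receptors and ligands lay further apart. A locus window lay in the gene or within 10 kb on either side and was not a promoter window of any gene, whether coding or long non-coding. At least 1 such window was found at 26 of 41 receptor genes (63.4%) and 12 of 40 ligand genes (30.0%), and the share over all protein-coding genes, 43.8%, lay between them. For all 85 genes together the count was 40 (47.1%), near that background. With 3 or more locus windows there were 10 receptor genes (24.4%) and 3 ligand genes (7.50%), beside 13.8% of all genes. Counting windows of either kind, 30 receptor genes (73.2%) and 16 ligand genes (40.0%) had at least 1, and 37 genes had none (35.5% of all protein-coding genes had none). The gap of 33.4 percentage points between receptors and ligands in locus windows depended on the width of the locus. With 50 kb on either side the shares were 75.6% and 65.0%, a gap of 10.6 points, beside 71.1% of all genes. With windows of several-summit calls only, 1 receptor and 1 ligand gene had a locus window (-0.061 points). No test was run on these shares, since the list is 1 sample.

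**Figure D1:**
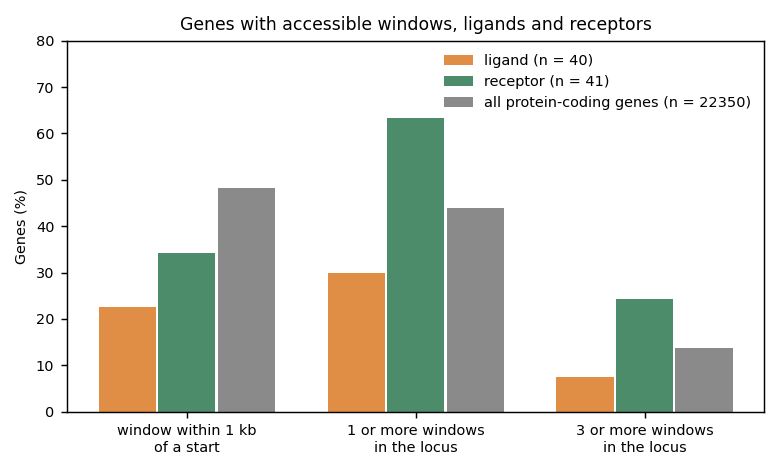
Percentage of genes (vertical axis) with a promoter window, with at least 1 locus window and with 3 or more locus windows, for 40 ligand genes, 41 receptor genes and all 22350 protein-coding genes; bars are shares of genes from 1 pooled list and carry no error. Receptor genes stand at 34.1%, 63.4% and 24.4% and ligand genes at 22.5%, 30.0% and 7.50%.

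Ligand and receptor genes differed in promoter CpG content and in length, and both moved with the counts. The CpG ratio, observed over expected CpG within 500 bp of the outermost start, had a median of 0.21 in ligand genes, 0.33 in receptor genes and 0.55 in all genes. When all genes were split into 3 equal groups by this ratio, at 0.311 and 0.708, 32 of 40 ligand genes (80.0%) and 18 of 41 receptor genes (43.9%) fell in the lowest group. In that group a promoter window was found at 4 of 32 ligand genes (12.5%), 3 of 18 receptor genes (16.7%) and 12.5% of all genes. In the middle group the counts were 4 of 7 ligand genes, 7 of 18 receptor genes and 51.5% of all genes. In the highest group they were 1 of 1, 4 of 5 and 80.4%. Taking all members together, the shares in the 3 groups were 13.2%, 44.0% and 85.7%, beside 12.5%, 51.5% and 80.4% of all genes.

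Gene length had a median of 6.52 kb in ligand genes, 31.9 kb in receptor genes and 15.4 kb in all genes. In the shortest of 3 equal length groups, up to 7.446 kb, 6 of 27 ligand genes (22.2%) had a locus window, beside 24.2% of all genes, and the only receptor gene, Il2rg, had none. In the longest group, above 29.375 kb, all 5 ligand genes and 15 of 22 receptor genes (68.2%) had one, beside 64.9% of all genes, so that ligands stood above receptors there. In the middle group receptors stood above ligands, with 11 of 18 receptor genes (61.1%), 1 of 8 ligand genes (12.5%) and 42.4% of all genes. Summed over loci, windows per 100 kb came to 2.32 for ligands, 1.30 for receptors and 1.75 for all genes. Without Il1rapl1 and Il1rapl2, neuronal relatives of the IL-1 receptors that each span over a megabase, the receptor value was 2.70. The median over genes went the other way, at 0 for ligands, 1.42 for receptors and 0 for all genes. Of the 31 locus windows at ligands, Il34 held 10, Il16 6 and Il15 5. The parts of CpG content and length in the difference between ligands and receptors were not tested.

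**Figure D2:**
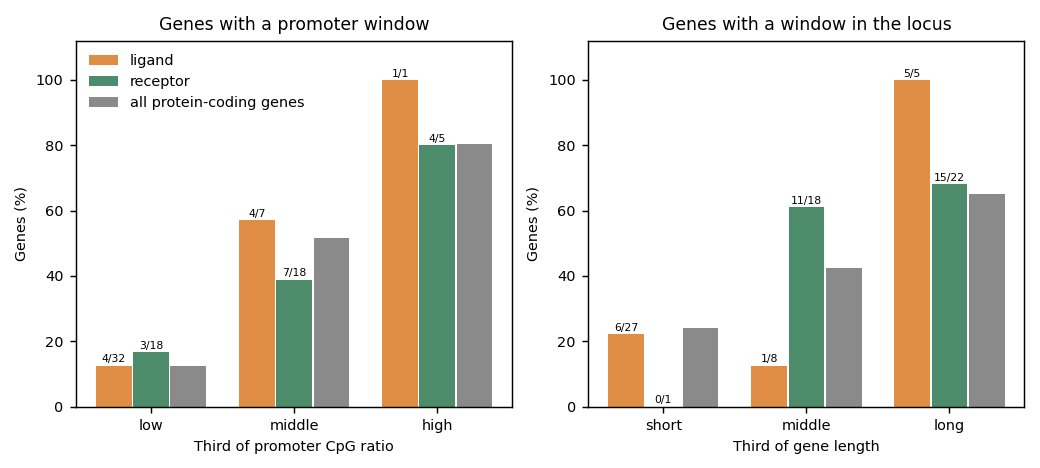
Left, percentage of genes with a promoter window in 3 groups of promoter CpG ratio; right, percentage with a locus window in 3 groups of gene length. Ligand, receptor and all protein-coding genes are shown, with counts of genes above the ligand and receptor bars; receptors exceed ligands most in the middle length group, at 61.1% against 12.5%.

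Among ligands, those with a window at a start included several inflammatory cytokines. Il6, the main acute-phase cytokine (chr5:30339701-30346508), had 1 window with its summit 197 bp past the start and no locus window. Both Il12a and Il23a, which encode the distinguishing chains of IL-12 and IL-23, had 1, at 1074 bp and 7 bp past the nearest start, while Il12b, the chain that the cytokines share, had none. Among the common gamma chain cytokines, Il15, which sustains NK and memory T cells, had 2 (324 and 758 bp past the start), and Il7, which sustains lymphocyte precursors, had 2 (393 and 711 bp before a start). Il17d, 1 of 6 IL-17 genes, had 1 at 493 bp and was the only ligand gene in the highest CpG group, with a ratio of 0.917. Il24, a cytokine of the IL-10 family, had 1 at 646 bp, with a CpG ratio of 0.062. Il24 and Il7 also had 1 locus window each.

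For Il12a, Il16, Il34 and some receptors the promoter window lay at an internal start of the annotation. That of Il12a had its summit 1854 bp past the outermost start. Il16, a chemoattractant for CD4+ cells, had 2 such windows, 90.3 and 91.0 kb into the gene from its outermost start. The single promoter window of Il34, a ligand of the CSF-1 receptor, lay 15.6 kb in. Counting the outermost start only, 18 of the 85 genes (21.2%) had a promoter window, beside 44.9% of all genes.

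Ligand genes without a promoter window but with locus windows were 7. Il33, an alarmin of epithelial cells, had 2, at 2204 bp before the start and 7595 bp past it. Il2, the T cell growth factor, had 1 at 2440 bp before its start, Il18 had 1 at 5023 bp before and Il1a 1 at 6070 bp before. Single windows beyond the end of the gene were found at Il9, Il28b and Il20, 5255, 5752 and 8448 bp past the start. No ligand gene of the IL-1 family, out of 9, had a promoter window. All 9 were in the lowest CpG group, where 12.5% of all genes had one.

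No window of either kind was found at 24 ligand genes. They included the type 2 cytokines Il4, Il5, Il13 and Il31, the T helper 17 cytokines Il17a, Il17f, Il21 and Il22, and the other IL-17 family genes Il25, Il17b and Il17c. The IL-1 family genes Il1b, Il1f5, Il1f6, Il1f8, Il1f9 and Il1f10 had none either, nor had the IL-10 family genes Il10, Il19 and Il28a. Il3, Il11, Il12b and Il27 complete the group. Of the 24, Il3, Il4, Il5, Il10, Il12b, Il13, Il17a, Il17f, Il19 and Il22 lay where few peak calls were listed, as given below. Il28a and its near copy Il28b share sequence, and only uniquely mapped reads were kept by the authors, so their zero and single window are uncertain.

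**Figure D3:**
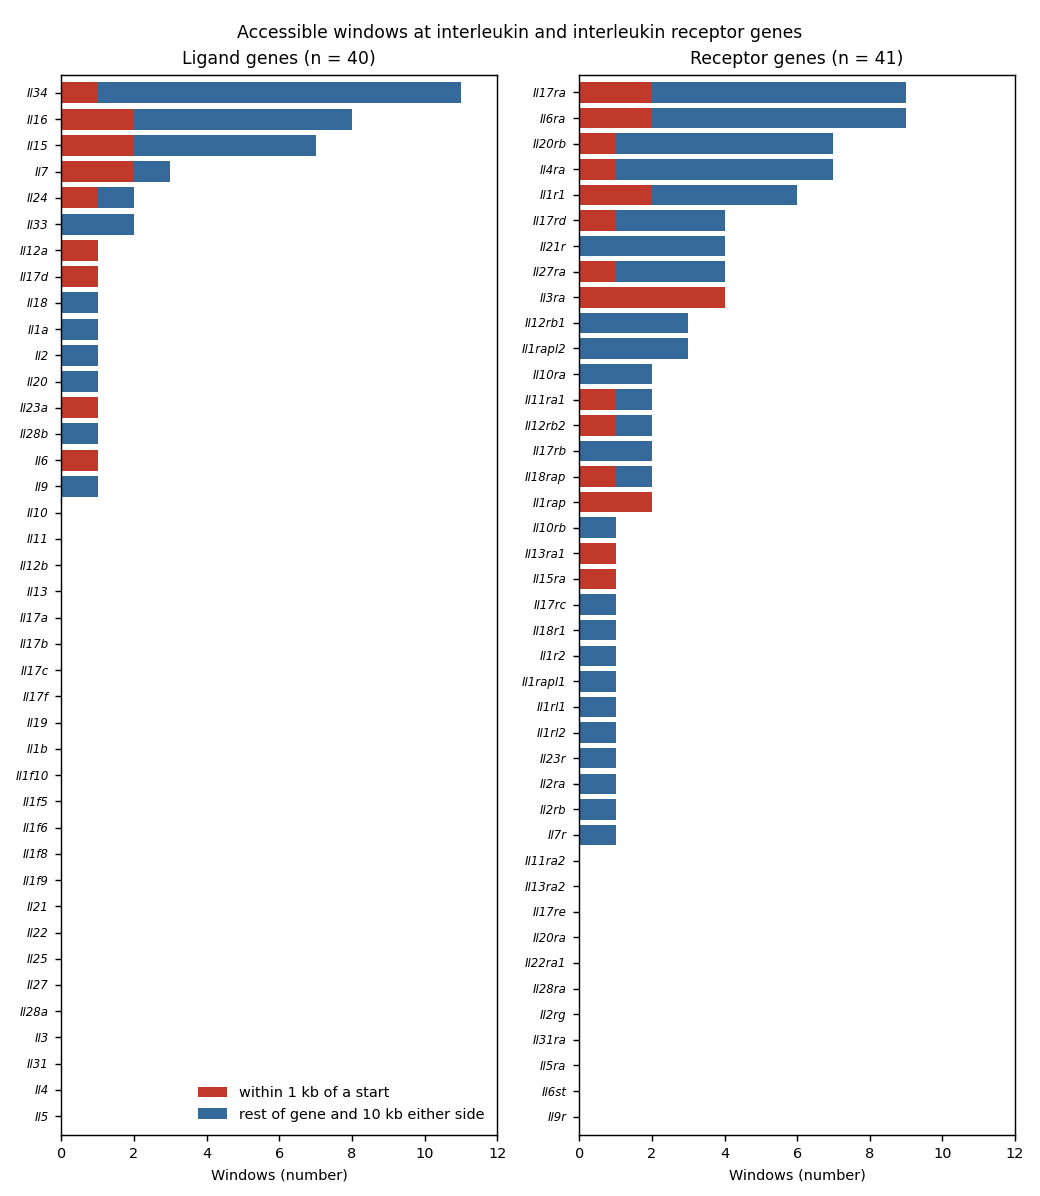
Number of windows at each ligand gene (left) and receptor gene (right), split into windows within 1 kb of a start and windows in the rest of the gene and 10 kb on either side. Il34 has the most, 11, among ligands, Il17ra and Il6ra have 9 each among receptors, and 24 ligand and 11 receptor genes have none.

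Among receptors, windows at the outermost start marked chains of several families. Il6ra, the IL-6 binding chain (chr3:89673246-89717084), had 2, at 143 bp before and 503 bp past the start. Il17ra, the chain common to IL-17 receptors (chr6:120413215-120433745), had 2, at 20 bp before and 626 bp past it. Il3ra, the IL-3 binding chain, had 4, from 747 bp before to 1105 bp past a start, in part from 1 call with several summits. Single windows close to a start were found at Il4ra (174 bp before), Il12rb2 (136 bp before), Il13ra1 (18 bp past), Il15ra (35 bp past), Il27ra (68 bp past) and Il17rd (100 bp past). Il1rap, the accessory chain that IL-1, IL-33 and IL-36 receptors share, had 1 at 2 bp before its first start and 1 at an internal start 43.7 kb in.

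At the remaining 4 receptor genes a window lay at an internal start. Il1r1, the signalling IL-1 receptor, had 1 at 210 bp before the first start and another 41.7 kb in. Il18rap had its window 27.0 kb in, Il20rb 24.6 kb in and Il11ra1 67.3 kb in. Il11ra1 has a near copy, Il11ra2, at which no window was found, and reads that match both were not kept.

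The starts of Il6ra and Il24 are shown as a receptor and a ligand whose promoter windows hold the AP-1 word TGANTCA, with N any base. The stretches are read from mm9 on the strand of the gene, lie in introns within 1 kb of a start, and carry the AP-1 word in capitals.
Il6ra, chr3:89716331-89716491, minus strand: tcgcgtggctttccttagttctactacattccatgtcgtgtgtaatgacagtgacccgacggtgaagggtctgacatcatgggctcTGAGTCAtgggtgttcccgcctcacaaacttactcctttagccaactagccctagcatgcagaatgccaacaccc
Il24, chr1:132783110-132783289, minus strand: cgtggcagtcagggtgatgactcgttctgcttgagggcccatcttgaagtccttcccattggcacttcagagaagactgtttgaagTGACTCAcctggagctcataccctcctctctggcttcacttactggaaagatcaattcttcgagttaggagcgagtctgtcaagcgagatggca

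This word was present in 6 of the 37 promoter windows (16.2%), 4 at receptors and 2 at ligands, beside 12.2% of all promoter windows. The ETS word CCGGAAG was found in 3 (8.11% beside 17.2%), the GATA word AGATAA in 5 (13.5% beside 10.6%) and the TEAD word GGAATG in 6 (16.2% beside 20.2%). Words were searched on both strands, and a match is a description of the letters only.

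Of the 97 locus windows counted over the members, 67 lay at 13 genes with 3 or more, 10 of them receptors. Il34 (chr8:113265729-113329824) had 10, which ranked 206 among all protein-coding genes, and 5 of these came from 1 call with several summits, 1889 to 3239 bp before an internal start. Of the other 5, 3 lay upstream of the gene (1492, 2948 and 9756 bp) and 2 inside it (2184 and 16861 bp past the outermost start). Il6ra and Il17ra had 7 each (rank 490). At Il6ra 5 lay inside the gene, from 4401 to 43302 bp past the start, and 2 lay beyond its end. At Il17ra 5 lay inside the gene, from 3682 to 19894 bp past the start, and 2 beyond its end.

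Il4ra (chr7:132695785-132722986), the receptor chain for IL-4 and IL-13, had 6 locus windows, 1 at 9855 bp upstream, 3 inside (7231, 8526 and 24702 bp past the outermost start) and 2 downstream (29422 and 30793 bp). Il20rb, which pairs in receptors for IL-19, IL-20 and IL-24, had 6, of which 2 were inside (17982 and 26428 bp past the outermost start), 3 downstream (32026, 32569 and 37991 bp) and 1 at 9374 bp upstream. Il16 had 6, from 91.8 to 106.6 kb past the outermost start, and 5 of them lay inside the neighbouring gene Stard5 as well. Il15 had 5, at 4998 bp before the start and at 1441, 28467, 48918 and 51674 bp past it. Il1r1 had 4, at 8651, 12153, 50311 and 91757 bp past its outermost start. Il21r, the IL-21 receptor, had 4, at 3427 bp before the nearest start and 14093, 32212 and 35517 bp past it. Those with 3 were Il12rb1, Il27ra, Il17rd and Il1rapl2. At Il12rb1, a chain of the IL-12 and IL-23 receptors, they lay 6951 and 3460 bp before the nearest start and 3072 bp past it. At Il27ra, the IL-27 receptor chain, they lay 6399, 7816 and 19202 bp past the nearest start. At Il17rd they lay 31120, 31552 and 70113 bp past the outermost start, which is 2724, 3156 and 41717 bp past an internal start. At Il1rapl2 they lay 272, 1066 and 1072 kb past the nearest start.

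**Figure D4:**
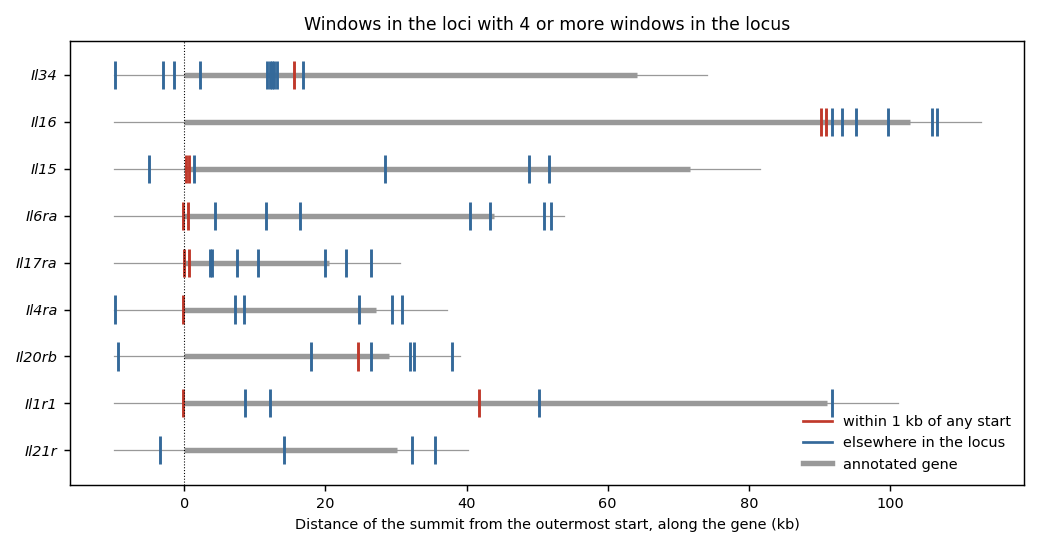
Positions of window summits along the 9 loci with 4 or more locus windows, as distance in kb from the outermost start in the direction of the gene; grey bars mark the annotated gene and thin lines 10 kb on either side. Windows of Il34 crowd about 12 kb into the gene, both promoter windows of Il16 lie over 90 kb in, and those of Il6ra, Il17ra and Il4ra are spread along the gene and past its end.

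The other receptor genes with locus windows had 1 or 2. In the IL-1 receptor family 8 of 9 genes had at least 1, the exception being Il1rap. Il1r2, the decoy receptor, had 1 in an intron 10894 bp past the nearest start, and Il18r1, the IL-18 binding chain, 1 in an exon near its end. Il1rl1, the IL-33 receptor, had 1 at 15436 bp past its outermost start, which is 4378 bp past an internal start. Il1rl2 shared its window with Il1r1, and Il18rap and Il1rapl1 had 1 each. Of the lymphocyte receptors, Il2ra (the IL-2 receptor alpha chain), Il2rb (its beta chain), Il7r and Il23r had 1 each, and Il10ra, the IL-10 binding chain, had 2 at 2279 and 5215 bp before its start. Il17rb had 2, and Il17rc, Il10rb, Il12rb2 and Il11ra1 had 1 each. The window of Il10rb lay inside Ifnar2 as well and that of Il11ra1 inside Dctn3. Those of Il17rb, outside the gene, lay inside Actr8 and Chdh. Of the 97 locus windows counted over all members, 15 (15.5%) had the summit inside another protein-coding gene.

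No window was found at 11 receptor genes. Among these were Il2rg and Il6st, the chains shared by the common gamma chain receptors and by the gp130 receptors. The others were Il5ra, Il9r, Il11ra2, Il13ra2, Il17re, Il20ra, Il22ra1, Il28ra and Il31ra. Of the 11, Il6st, Il9r, Il20ra and Il31ra lay where few peak calls were listed, as given below. Of the soluble inhibitors, Il18bp, which binds IL-18, had 1 locus window inside Numa1, and Il1rn, the IL-1 receptor antagonist, and Il22ra2, which binds IL-22, had none. Il4i1, an amino acid oxidase first found as induced by IL-4, had 4 promoter windows and 1 locus window. Of the promoter windows 3 lay also at starts of Atf5 and Nup62, at 412 and 189 bp before and 389 bp past the nearest start, and the fourth was 149 bp before an internal start.

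Locus windows of these genes held the RUNX word TGTGGTT in 25 of 96 cases (26.0%), beside 13.8% of all windows away from starts. RUNX factors act in lymphocytes and in mammary epithelium. The 25 windows lay at 19 genes, 19 windows at receptors and 5 at ligands, among them Il2ra, Il4ra, Il6ra, Il17ra, Il21r and Il10ra. The STAT word TTCCNGGAA, whose right arm holds the GGAA core also used by ETS factors, occurred in 7 windows (7.29% beside 1.84%), 1 each at Il1a, Il4ra, Il15, Il16, Il17ra, Il20rb and Il34. These words were singled out from 13 after their counts were seen. The AP-1 word was at background (31.3% beside 31.9%), as were the C/EBP word TTGCNNAA (18.8% beside 18.7%) and the TEAD word (25.0% beside 29.1%). The PU.1 word GAGGAAGT was in none of the 96, beside 4.92%.

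The stretches below show the STAT word at 5 genes and, at Il2ra, a RUNX word and a cyclic AMP response word, in a window 10699 bp past the start. Capitals mark STAT (TTCCNGGAA), RUNX (TGTGGTT or its complement AACCACA), AP-1 (TGANTCA) and CRE (TGACGTCA) words, and each stretch is read from mm9 on the strand of the gene.
Il2ra, chr2:11574926-11575110, plus strand: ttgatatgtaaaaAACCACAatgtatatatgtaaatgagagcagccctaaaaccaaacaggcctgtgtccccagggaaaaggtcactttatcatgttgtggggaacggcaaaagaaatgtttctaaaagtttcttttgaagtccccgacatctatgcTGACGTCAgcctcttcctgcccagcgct
Il4ra, chr7:132725039-132725218, plus strand: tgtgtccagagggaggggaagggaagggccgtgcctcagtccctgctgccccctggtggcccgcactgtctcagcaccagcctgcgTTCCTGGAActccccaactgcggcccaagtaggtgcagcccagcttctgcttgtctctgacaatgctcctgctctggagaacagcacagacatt
Il15, chr8:84898404-84898617, minus strand: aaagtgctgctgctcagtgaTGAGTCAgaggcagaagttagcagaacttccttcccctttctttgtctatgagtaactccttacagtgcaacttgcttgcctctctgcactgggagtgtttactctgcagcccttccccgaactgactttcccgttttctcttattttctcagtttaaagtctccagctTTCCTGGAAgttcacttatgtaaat
Il17ra, chr6:120416647-120416855, plus strand: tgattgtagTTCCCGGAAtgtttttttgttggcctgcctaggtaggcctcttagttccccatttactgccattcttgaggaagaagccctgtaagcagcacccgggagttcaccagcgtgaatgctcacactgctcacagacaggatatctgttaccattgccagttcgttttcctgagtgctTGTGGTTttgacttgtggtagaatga
Il34, chr8:113316986-113317165, minus strand: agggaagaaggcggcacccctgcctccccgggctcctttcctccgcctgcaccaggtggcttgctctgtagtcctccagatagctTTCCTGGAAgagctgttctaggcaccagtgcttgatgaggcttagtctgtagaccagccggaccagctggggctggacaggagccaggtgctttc
Il1a, chr2:129141528-129141621, minus strand: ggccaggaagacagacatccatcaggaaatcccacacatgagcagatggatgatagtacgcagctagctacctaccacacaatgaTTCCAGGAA

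The stretch of Il15 holds an AP-1 word as well as the STAT word, in an intron 28467 bp past the start, and that of Il17ra a RUNX word, 3682 bp past the start. Those of Il4ra and Il1a lie outside the gene, 29.4 kb past the outermost start and 6.07 kb before the start, and that of Il34 belongs to the call with 5 windows described above.

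Several interleukin genes lie next to each other, and these clusters differed. The 6 receptor genes from Il1r2 to Il18rap on chromosome 1 span 467 kb with 13 windows, and all 6 had a locus window. Il4ra and Il21r, side by side on chromosome 7 over 81.3 kb, held 11 windows in all, 10.9 per 100 kb of the span with its flanks. In contrast, the 6 genes from Il1f8 to Il1rn on chromosome 2, over 198 kb, held none. The type 2 cluster of Il4, Il13 and Il5 on chromosome 11 (122 kb) held 1 window, at a start of another gene. No window lay in the clusters of Il17a and Il17f, of Il6st and Il31ra, or of Il28ra and Il22ra1, and the 143 kb cluster of Il24, Il20, Il19 and Il10 held 3.

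The peak names also tell of calls left out of the list. Calls carry consecutive numbers up to 118153, so calls that were made but left out of the 50000 windows can be counted between listed neighbours. Of the 37 genes without a window, 36 had at least 1 such missing call between the windows that flank their locus. The median was 8, and at Il28a there was none. Every gene with a window had at least 1 missing call too, for example 10 at Il6ra and 12 at Il17ra. Only 27.2% to 44.4% of the numbered calls on a chromosome were listed, so at least 1 missing call is to be met at nearly any locus. It cannot tell loci with and without a window apart, and the part of missing calls was not tested. At 5 of the 37 the locus did hold listed windows, all at starts of other genes. In a cluster without a window all calls between its flanking windows are missing by definition. These were 9 from Il1f8 to Il1rn and 10 at Il6st and Il31ra. In the cluster of Il4, Il13 and Il5 10 of 11 calls were missing, and in that of Il24 to Il10 16 of 19. In clusters with more windows 17 of 30 were missing from Il1r2 to Il18rap, and 13 of 24 at Il4ra and Il21r. Whether a missing call lay in the locus or beside it is not given by its number.

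The share of numbered calls that were listed varied along the genome, from 21.0% to 57.0% within 5 Mb of each gene. Under 35% were listed around 15 of 40 ligand genes and 6 of 41 receptor genes, among 5146 of all 22350 genes. Of those 15 ligand genes, Il7, Il9, Il20, Il23a and Il24 had a window and the others had none. All genes under 35% were then left out, a choice made after seeing the data. Locus windows were found at 8 of 25 ligand genes (32.0%) and 25 of 35 receptor genes (71.4%), beside 45.3% of all genes outside such stretches. Promoter windows were found at 6 of 25 (24.0%) and 13 of 35 (37.1%), beside 48.4%.

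**Figure D5:**
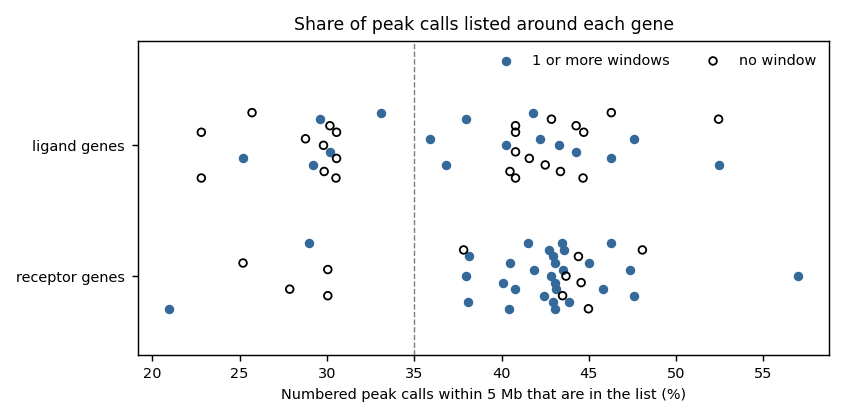
Percentage of numbered peak calls within 5 Mb that are in the deposited list (horizontal axis), for each ligand and receptor gene; filled points have at least 1 window, open points none, vertical offsets only separate points, and the dashed line is at 35%. To the left of the line lie 15 ligand and 6 receptor genes, with and without windows.

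Other genes of the same pathways were read for comparison from a list of 41. A promoter window was present at 31 of them (75.6%), beside 48.1% of all protein-coding genes. A locus window was present at 30 (73.2%), beside 43.8%. These genes were not split by CpG content or length. All 4 JAK kinase genes and all 8 SOCS inhibitor genes had a promoter window. All 8 genes listed for IL-1 and IL-18 signalling, Myd88 and Irak1 to Irak4 among them, had one too, as had Traf3ip2, which encodes Act1. Of 7 STAT genes 6 had one, Stat5b being without. Receptor chains of the same families that are not named Il had one at 3 of 7 (42.9%), namely Csf2ra, Crlf2 and Osmr, near the share of all genes. Ligands not named Il had one at 1 of 5 (20.0%), Ebi3. Locus windows were found at 5 of these 7 receptor chains (71.4%) and 3 of these 5 ligands (60.0%). Lif, a ligand that signals through gp130, had no promoter window and 8 locus windows.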

How the data were processed

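Per the study's methods, the authors trimmed paired reads, mapped them to mm9 with Bowtie2 2.1.0, kept uniquely mapped reads, removed duplicates (Picard 1.79), called summits on aggregated cells of a single condition with MACS2 (version not given in the sources used here), cut 500 bp windows and kept the 50000 of lowest q-value. The deposited values used are the start and end positions of these windows, with a peak name. They hold no score, count or p-value, so the depth behind a window is not known here, and each share is a count of genes. The reference matched mm9 in chromosome names and lengths, with 0 windows past a chromosome end, and genes were those of GENCODE for that build. Windows were assigned to genes with Python 3.11.15, pandas 2.3.3 and pysam 0.24.0, after the assignment had been tested on simulated windows. Every gene was counted by the same rules and the 85 members were then taken out. No test was made, because the list is 1 pooled sample. Each member is named, with positions or their range for genes with a promoter window or 3 or more locus windows. Other positions, and the examples named for a word or a cluster, were picked after their values were seen. Stretches shown were limited to 8. Members, roles, pathway genes and the 13 words were chosen with earlier results of these data known. Alternatives covered the distance from starts, the choice of start, the flank, merging, several-summit calls, chromosomes and roles.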

Additional observations from a re-analysis of the deposited data

How the results depend on the processing

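Of 32 alternative counts, 26 stayed within the bounds set. A count had to lie within 1.5 times the main count. A difference in shares had to keep its sign and lie within a band set from Wilson confidence intervals of the ligand and receptor shares. That band treats genes as independent, so it served as a rough guide and not as a test. Receptors exceeded ligands by 33.4 percentage points for locus windows and 11.6 for promoter windows. With windows of calls with several summits only, both differences turned, to -0.061 and -2.56 points. They then rested on 2 genes with a locus window and 4 with a promoter window instead of 40 and 24. These were 2.35% and 4.71% of the 85 genes, beside 4.80% and 13.0% of all genes. With 50 kb on either side the locus difference was 10.6 points, and 61 of the 85 genes had a locus window (71.8%), beside 71.1% of all genes. In both cases the cause was not tested. Over all alternatives the locus difference ran from -0.061 to 41.2 points (the highest with the gene only) and the promoter difference from -2.56 to 14.1. Without chromosomes 1 and 10 to 13 they were 29.9 and 11.8. No paired analysis was possible because the list is 1 pooled sample and the counts come from no test. Unknown depth and the limit of 50000 windows bound what an absent window can show.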
